A study of Homo sapiens with 58 samples.

Results

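The comparison is that of sodium arsenite with mock treatment in HuR-bound RNA recovered next to the protein G3BP1, and it rests on 13 of the 58 libraries of the series. These are all libraries titled as enriched from the G3BP line, 7 after arsenite and 6 after mock treatment, and they are chosen by their titles alone. The cells were Huh-7.5, a human hepatocellular carcinoma line, carrying the ascorbate peroxidase APEX joined to G3BP1. Arsenite cells received 0.5 mM sodium arsenite for 45 min and mock cells did not. Both groups were otherwise handled alike: 0.5 mM biotin phenol for 30 min, 1 mM hydrogen peroxide for 1 min to start the labelling reaction, 254 nm ultraviolet light at 400 and then 200 mJ/cm2, immunoprecipitation of HuR, and capture of biotinylated complexes on streptavidin. The mock libraries are therefore labelled and captured controls, not cells without APEX. The promoter of the fusion, the number of clones in the line and whether replicate libraries came from separate cultures are not given in the sources used here, so p-values measure the spread between these libraries, which may be technical.

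HuR, encoded by ELAVL1, is a mostly nuclear RNA-binding protein that moves to the cytoplasm under stress, and it prefers U-rich and AU-rich stretches, which are frequent in 3'UTRs and introns. Arsenite is an oxidative stressor that halts translation initiation, upon which untranslated messenger RNA and proteins assemble into stress granules around G3BP1. APEX converts biotin phenol to a short-lived radical that tags proteins within a small radius, so capture enriches for HuR close to G3BP1 at the time of labelling. Background binding to streptavidin was not measured in the libraries used here.

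The libraries belong to 3 library sets, named by the prefix of their descriptions, and each set holds both treatments. JL0361 has mock libraries 1 and 2 and arsenite libraries 1 to 3, JL0388 has mock 3 and 4 and arsenite 4 and 5, and JL1024 has mock 5 and 6 and arsenite 6 and 7. CLIP tags in the listed 20 nt peaks numbered 519 to 86419 in the mock libraries (median 5798.5) and 1391 to 49736 in the arsenite libraries (median 12689). Mock libraries 1, 3 and 4 and arsenite library 1 had under 2000 tags in peaks. A count of 0 allowed up to 474 CPM, tags per 1000000 tags of the library total, in mock library 1, 203 in mock library 3, 644 in mock library 4 and 228 in arsenite library 1, against 3.18 in mock library 6, the deepest. Arsenite libraries 4 and 5 could not be told apart beyond sampling noise, and neither could mock libraries 3 and 4. At the depth of the mock pair, 2 of 3 other pairs that differ at full depth, arsenite 6 and 7 and mock 5 and 6, were still told apart (permutation p = 0.001), and arsenite 2 and 3 were not (permutation p = 0.281). Each of these pairs was counted as 1 sample in every mean ± SD. Arsenite library 1 had the highest share of tags in transposable elements, 19.0%, and arsenite library 6 had an intron share of 32.7%, above that of every other arsenite library. Of 15 hepatocyte markers 11 carried tags, 694 in all, while the 4 leukocyte markers had 4 tags, none of them exonic, and the 4 fibroblast and 4 endothelial markers had 0.

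Most peaks lie in 3'UTRs and introns, for which no genome sequence was used here, but 114 peaks with tags fall inside RefSeq promoter windows (GRCh38.p14, 250 bases before to 50 after a gene's start). The 5 with the most tags are shown because they are the strongest peaks whose letters could be read, and they lie near annotated starts. Letters run 5' to 3' on the strand of the gene, and capitals mark a run of 5 or more T.
C6orf62 5'UTR, chr6:24719142-24719161, minus strand: TTTTTTggaaagcaaggatc
H2BC5 5'UTR, chr6:26158135-26158154, plus strand: gtgtttgcaacagtgttcta
H2BC6 5'UTR, chr6:26183768-26183787, plus strand: ttcctaactgcagaacagca
CLASP1 5'UTR, chr2:121649451-121649470, minus strand: TTTTTTTaatccccgcacca
peak with no gene name, chr4:12563133-12563152, minus strand: TTTTTTTTataacaacagaa
The C6orf62 peak begins 7 bases before the RefSeq start, the CLASP1 peak 8 bases before it, and the peak with no gene name lies wholly before the start of its window's gene. The T run ends before the annotated start in these 3, so by this annotation its letters are not in the RNA of the window's gene. H2BC5 and H2BC6, which encode histone H2B, have their peaks behind the start and no such run.

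Tags of these peaks were few and unevenly spread over the library sets. JL1024 held 87.8% of the pooled library totals in mock and 12.8% after arsenite, while JL0361 held 10.8% and 79.2%, so sums over all libraries mix set with treatment and values are given within sets. In JL1024 the C6orf62 peak had 11 mock and 16 arsenite tags, or 8.60 and 86.9 CPM. The H2BC5 peak had 16 arsenite tags in JL0361, or 14 CPM, where 0 mock tags allow up to 19.0 CPM, and 3 mock tags against 0 arsenite tags in JL1024. All 13 tags of the peak with no gene name came from mock libraries of JL1024, at 10.2 CPM, where 0 arsenite tags allow up to 16.3 CPM. None of these last differences was detectable at this depth. The CLASP1 peak had 1 mock tag in each set and was lower after arsenite in JL0361 (6.13 against 6.34 CPM, 7 arsenite tags) and in JL0388 (25.7 against 51.5 CPM, 3 tags), and higher in JL1024 (16.3 against 0.782 CPM, 3 tags). The H2BC6 peak had 15 arsenite tags in JL0361, or 13.1 CPM, against 0 mock tags, which allow up to 19.0 CPM. In JL1024 it had 1 mock and 1 arsenite tag, or 0.782 and 5.43 CPM. Neither difference was detectable at this depth. Of the 114 peaks, 21 (18.4%) contained TTTTT on the gene strand, and in 16 of those the run began at the first base of the peak. In all 21 the run lay wholly before the RefSeq start of the window's gene. Some of these peaks are named after another gene, as BTG1 and SEC24C, or are classed as introns, as CREB5. Their letters can therefore lie in another transcript. Among all 526740 pieces of the same length from all windows, 1.96% contained it. The match describes letters only.

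After arsenite a smaller part of the captured tags lay in introns. Intron peaks held 18.1% and 23.2% of tags in mock libraries 1 and 2, against 11%, 11.8% and 11.5% in arsenite libraries 1 to 3. In JL0388 the mock libraries had 33.9% and 36.2% and the arsenite libraries 14.4% and 15.7%. In JL1024 the values were 37.5% and 39.3% against 32.7% and 18.8%. Treated and mock libraries did not overlap within any set, although arsenite library 6 was higher than both mock libraries of JL0361. The mean was 16.8% ± 8.34 (SD, n = 6) after arsenite and 30.6% ± 9.41 (SD, n = 5) in mock. With library set in the model the intron share fell by 13.7 percentage points, and the two-sided exact permutation of treatment within set gave p = 0.00278, the smallest of 360 arrangements, or 0.0278 after Benjamini-Hochberg adjustment over 10 classes. As a percentage of the library total the difference was -1.03 points (exact permutation p = 0.00833, adjusted 0.0417), and there the groups did overlap: arsenite library 6 had 3.55%, between 3.40% and 3.60% in mock libraries 5 and 6. Counting arsenite libraries 4 and 5 once gave -12.9 points and an adjusted exact permutation p of 0.0556, the smallest that design can give when a single class differs. With 1 library left out the differences ran from -12.2 to -15.4, 3 of the 13 settings could have reached an adjusted p under 0.05, and 1 did, that without arsenite library 1 (0.0463).

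The share in 3'UTRs was higher after arsenite in most libraries but did not pass the adjusted test. In JL0361 it was 23.5% and 30.9% in mock against 22.4%, 49.0% and 48.4% in arsenite libraries. In JL0388 it was 35.9% and 29.9% against 61.8% and 59.5%, and in JL1024 24.2% and 22.6% against 28.0% and 44.6%. The exception was arsenite library 1, which lay below both mock libraries of its set and had only 1391 tags in peaks. Means were 42.2% ± 14.3 (SD, n = 6) and 26.8% ± 4.72 (SD, n = 5), and the difference within set was 17.5 points (two-sided exact permutation p = 0.0222, adjusted 0.111). Without arsenite library 1 it was 20.7 points with an adjusted exact permutation p of 0.0463. As a percentage of the library total, which also counts tags outside the listed peaks, the 3'UTR difference was 3.18 points (adjusted exact permutation p = 0.0417). Tags in peaks themselves made up 2.63 points more of the library total after arsenite (two-sided exact permutation p = 0.00556).

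Peaks in non-coding RNA held 11.9% to 13.7% of tags in the 6 mock libraries. Arsenite libraries 2 to 5 had 5.76% to 6.68%, while libraries 1, 6 and 7 had 13.9%, 12.7% and 9.10%. The difference of -3.78 points had an exact permutation p of 0.0333 and an adjusted p of 0.111, so it did not pass. The 5'UTR share was 0.784% ± 0.427 (SD, n = 6) after arsenite and 0.511% ± 0.180 (SD, n = 5) in mock (adjusted exact permutation p = 0.194). The remaining 6 classes had adjusted exact permutation p-values of 0.433 to 0.858.

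**Figure D1:**
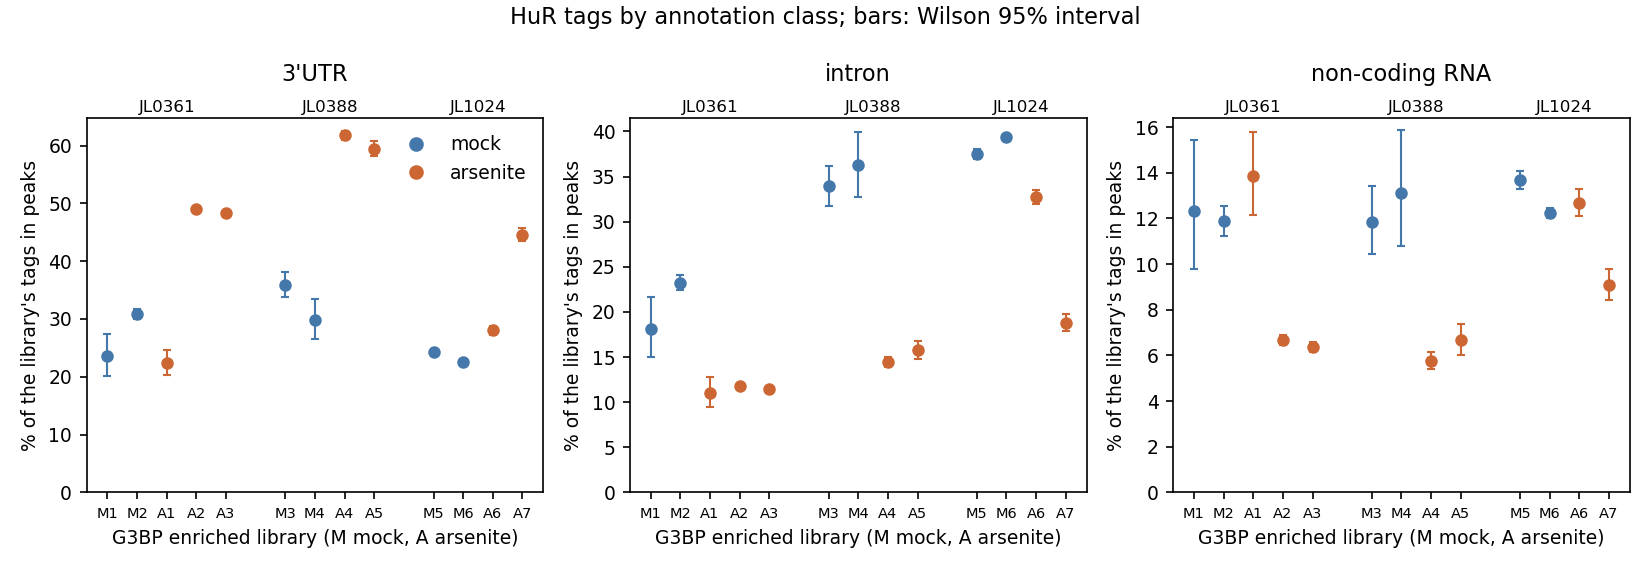
Shares of 3'UTR, intron and non-coding RNA peaks in the tags of each library, in percent of its tags in peaks, by library set, for mock (blue) and arsenite (orange) libraries of the G3BP enriched group; bars are Wilson 95% intervals, which cover counting error only. In every set the arsenite points lie below the mock points for introns, while for 3'UTRs arsenite library 1 (A1) lies with the mock libraries at 22.4%.

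A shift in the same direction was seen in tags summed over all genes that carry both kinds of peak. Such a sum can also move when different genes contribute the tags. In 6297 genes with 3'UTR and intron peaks, 3'UTR tags as a percentage of 3'UTR plus intron tags were 63.9% and 58.8% in the mock libraries of JL0361 and 71.8%, 83.2% and 83.5% in its arsenite libraries. They were 53.1% and 46.4% against 82.8% and 81.2% in JL0388, and 40.2% and 37.9% against 47.5% and 72.8% in JL1024. No arsenite library overlapped the mock libraries of its set. The difference was 23.5 points (two-sided exact permutation p = 0.00556), a measure chosen after the class shares had been seen. Leaving out the 4 libraries under 2000 tags, and with them both mock libraries of JL0388, gave 22.5 points, with an exact permutation p of 0.0556, the smallest that design allows.

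Of these genes 305 had both features dense enough to test one by one. The edgeR log2 difference, arsenite over mock, was larger for the 3'UTR than for the introns of the same gene in 255 of them. The median was 0.91 for 3'UTRs and -0.51 for introns, and the median difference within a gene was 1.52. Within sets, the 3'UTR percentage was higher after arsenite in 191 of 257 genes with tags under both treatments in JL0361, in 135 of 199 in JL0388 and in 194 of 302 in JL1024.

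ZBTB20, a zinc finger transcription factor of the liver, had the same order in each set: 25%, 50% and 26.8% of its 3'UTR plus intron tags lay in the 3'UTR in mock libraries of JL0361, JL0388 and JL1024, against 77.2%, 68.8% and 58.8% after arsenite, with only 4 mock tags behind the value in JL0388. BICC1, which encodes a KH-domain RNA-binding protein, went from 28.6% to 100% in JL0361 and from 39.1% to 94.7% in JL1024, with no mock tag in JL0388. AFP, the fetal albumin-like plasma protein, went from 66.7% to 95.1% and from 50% to 66.7% in the same sets, with 4 mock tags in JL0388. GPC3, a cell surface proteoglycan of hepatocellular carcinoma, had the opposite order in JL1024, where it went from 40.2% to 28.6%. These 4 genes were picked after their values were seen, and ZBTB20 and GPC3 are among the 5 genes with the most tags in the sparser of the 2 classes.

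**Figure D2:**
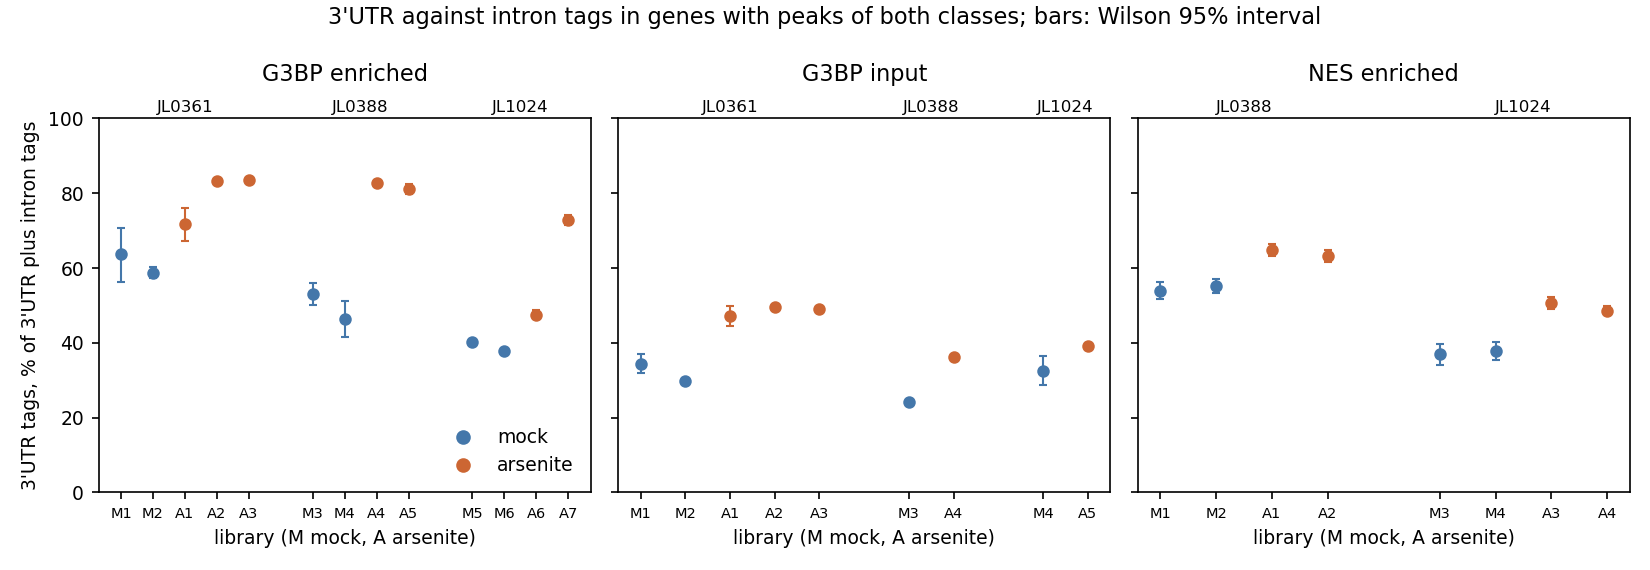
3'UTR tags as a percentage of 3'UTR plus intron tags in genes with peaks of both classes, per library and library set, for G3BP enriched, G3BP input and NES enriched libraries (blue mock, orange arsenite; bars are Wilson 95% intervals). Arsenite points lie above the mock points of the same set in all 3 panels, and the G3BP enriched arsenite libraries other than A6 reach 71.8% to 83.5%.

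Summed per gene and class, 17916 features carried tags and 2560 had tags in at least 6 of the 13 libraries and were tested. The limma test on log2(CPM + 11.3) called 0 features, 0% of those tested, with 448 (17.5%) at an unadjusted p under 0.05, and a median log2 difference of 0.38. edgeR's quasi-likelihood test on the recovered tags, the alternative count test, called 96 features higher (3.75%) and 12 lower (0.469%), 108 in all (4.22%), at an adjusted p under 0.05, with 494 (19.3%) at an unadjusted p under 0.05. Of the 96, 90 were 3'UTRs, and of the 12, 9 were introns. The 7 arsenite libraries can meet the 6-library requirement alone, while mock libraries 1, 3 and 4 are shallow, so features high after arsenite enter more easily. Of the 96 features, 57 had tags in at most 2 mock libraries and 18 in at most 1. With tags required in only 3 libraries, 7530 features were tested, limma's median log2 difference was 0.14, and edgeR called 62 higher (0.823%), 43 of them among the 96, and 20 lower (0.266%). A requirement that uses no G3BP enriched library, tags in every G3BP input library, left 96 features, of which edgeR called 4 higher (4.17%) and 2 lower (2.08%), with 21 at an unadjusted p under 0.05. The split depends on the scaling: relative to the tags in peaks, edgeR called 44 higher (1.72%), 41 of them 3'UTRs, and 36 lower (1.41%), 29 of them introns, which is 80 in all (3.12%) with 466 (18.2%) at an unadjusted p under 0.05. With TMM scaling edgeR called 0 features (229, or 8.95%, unadjusted), and so did DESeq2 (174 unadjusted). Without the 4 libraries under 2000 tags edgeR called 2. Weighting libraries by their residual spread, limma called 45 higher (1.76%) and 1 lower (0.0391%), 46 in all (1.8%), with 511 at an unadjusted p under 0.05. Gene-level calls below are therefore those of edgeR with library totals, and in the main limma fit none of them passed.

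By class, edgeR's median log2 difference was 0.91 over 1417 3'UTR features, of which 1179 were above 0 and 90 (6.35%) were called higher. With tags required in only 3 libraries 2573 of 3245 3'UTR features were above 0, with a median of 0.80 in edgeR and 0.35 in limma, and the 18 3'UTR features with tags in every input library had a median of 1.01. Over 892 intron features it was -0.45, with 301 above 0, 9 called lower and 3 called higher. The 21 5'UTR features had a median of 1.13 with 19 above 0, the 10 coding sequence features 0.78, and the 162 non-coding RNA features -0.29. These levels move together with the scaling: the 3'UTR and intron medians were 0.60 and -0.72 relative to tags in peaks, and -0.04 and -1.29 with DESeq2's size factors, by which 678 of the 1417 3'UTRs were above 0. The 3'UTR median lay above the intron median under each of these scalings and in limma (0.69 and -0.02).

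**Figure D3:**
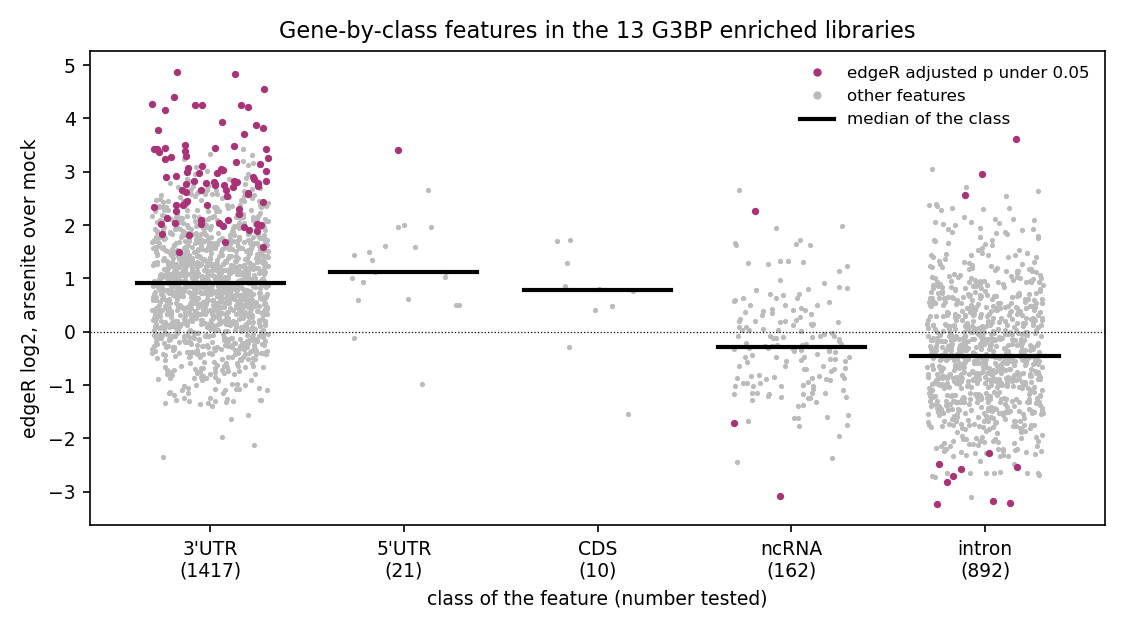
edgeR log2 difference, arsenite over mock, of every tested gene-by-class feature in the 13 G3BP enriched libraries, by class (number tested in brackets); horizontal position within a class is random, black lines are class medians and purple points have an edgeR adjusted p under 0.05. The calls lie mostly at the top of the 3'UTR column and at the bottom of the intron column.

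Among the 3'UTRs that edgeR called higher, IGF2BP1, HMGCS1, CORO1C and GDI2 had 183 to 299 tags after arsenite. IGF2BP1 encodes an RNA-binding protein of the fetal liver and of tumours that is found in stress granules. Its 3'UTR (leading peak chr17:49055854-49055873) ranged from 0 to 43.4 CPM in mock libraries with a median of 9.92, and from 76.1 to 143 CPM with a median of 131 after arsenite. The treatments did not overlap, but mock libraries 1, 3 and 4 had 0 tags, which allows more than any arsenite value, so this rests on mock libraries 2, 5 and 6. The log2 difference was 2.00 in edgeR (adjusted p = 0.0158) and 2.56 ± 0.72 (SE) in limma (adjusted p = 0.151). HMGCS1, the HMG-CoA synthase of cholesterol synthesis, ranged from 0 to 74.8 CPM in mock (median 11.6) and from 59.8 to 245 CPM after arsenite (median 178). Its log2 difference was 1.84 in edgeR (adjusted p = 0.0196) and 2.61 in limma, and only arsenite library 6 overlapped the mock range, in which libraries 1, 3 and 4 had 0 tags. CORO1C, an actin-binding coronin, ranged from 0 to 203 CPM (median 31.9) and from 0 to 462 CPM (median 145), the 0 being arsenite library 1 (edgeR log2 2.09, adjusted p = 0.00733; limma 1.51, adjusted p = 0.260). GDI2, a Rab GDP dissociation inhibitor, ranged from 0 to 39.7 CPM (median 15) and from 0 to 321 CPM (median 160), again with 0 in arsenite library 1 alone (edgeR log2 2.04, adjusted p = 0.00761; limma 2.46, adjusted p = 0.151). In GDI2 a single peak, chr10:5765747-5765766, held 98.9% of the feature's tags.

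The features with the smallest edgeR p-values were sparser. The 5'UTR of C6orf62, whose leading peak is the one printed above with 72.9% of the feature's tags, had 0 tags in 4 mock libraries and up to 11.6 CPM in the rest, against a median of 51.2 and a maximum of 149 CPM after arsenite. Pooled per set it had 86.9 against 10.2 CPM in JL1024, while 14 and 120 CPM in JL0361 and JL0388 stood against mock counts of 0 that allow up to 19.0 and 154 CPM (edgeR log2 3.41, adjusted p = 0.00502; limma 2.11, adjusted p = 0.151). HELLS, a chromatin remodelling helicase gene whose feature is classed as non-coding RNA in the table, ranged from 0 to 32.8 CPM in mock and from 49.6 to 249 CPM after arsenite, without overlap but again with 0 tags in mock libraries 1, 3 and 4 (edgeR log2 2.26, adjusted p = 0.00761; limma 2.78, adjusted p = 0.151). HELZ, an RNA helicase, had a median of 8.07 CPM in mock and 101 CPM after arsenite (edgeR log2 2.91, adjusted p = 0.00651). LPP, a focal adhesion protein, had medians of 1.5 and 35.6 CPM (edgeR adjusted p = 0.00651), and VCPIP1, a deubiquitinase, medians of 0 and 76.9 CPM (edgeR adjusted p = 0.00686). The mock medians of LPP and VCPIP1 include 0 tags in mock libraries 3 and 4, which allow up to 203 and 644 CPM. Pooled in JL1024, HELZ had 10.2 and 114 CPM in mock and arsenite, LPP 10.2 and 86.9, and VCPIP1 27.4 and 130. In the other sets VCPIP1 had no mock tag, and neither HELZ nor LPP had more than 1 mock tag per set.

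The other 8 with the smallest p-values rested on 1 to 12 mock tags, all of them in JL1024, so only that set gives a ratio. There PM20D2 had 2 mock and 10 arsenite tags, a ratio of 34.7 with a 95% counting interval of 7.40 to 326. CHD7, a chromatin remodeller, and VPS13C both had 2 and 8 tags (ratio 27.8, interval 5.54 to 269), and PRELID3B, a mitochondrial lipid transfer protein, 3 and 8 (ratio 18.5, interval 4.45 to 108). SEC63, of the protein translocation channel of the endoplasmic reticulum, and NAV2 both had 1 and 5 tags (ratio 34.7, interval 3.89 to 1643). ZNF543 had 4 and 9 tags (ratio 15.6, interval 4.36 to 69.5), and SNTB1, a syntrophin, 12 and 18 (ratio 10.4, interval 4.75 to 23.7). Having mock tags in no more than 2 libraries, these features met the 6-library requirement mainly through the arsenite libraries, and they were picked for their p-values. The ratios therefore describe the values that chose the features and are no further support for a difference. The intervals cover counting error within the set and leave the spread between its libraries aside.

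When limma was limited to the 321 features with tags in at least 10 libraries, it called 13 higher (4.05%) and none lower, with 70 (21.8%) at an unadjusted p under 0.05. They were HELLS, DCUN1D4, NUCKS1, ARHGAP5, HMGCS1, IGF2BP1, SLC38A2, AK4, RHOB, SDC1, BZW1, ATP2B1 and SFPQ, with adjusted p-values of 0.0201 to 0.0483. Of these, 5 were also among edgeR's 96. Of edgeR's 96 features, 85 had more pooled CPM after arsenite than in mock in each of the 3 sets, but in 76 of these 85 at least 1 set had a mock count of 0. Of the 12 lower ones, 9 had less in each set, 4 of them with an arsenite count of 0 in at least 1 set. Over all features 28.2% were higher in each set, over all 3'UTR features 42.7%, and over all intron features 14.5% were lower in each, and the values compared were those used for the call.

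Features lower after arsenite were mostly introns. ACACA encodes acetyl-CoA carboxylase, the first committed enzyme of fatty acid synthesis, and its introns ranged from 0 to 136 CPM in mock (median 36.0) and from 0 to 11.3 CPM after arsenite (median 8.27). Pooled in JL0361, JL0388 and JL1024, it was 63.4, 103 and 37.5 CPM in mock and 8.76, 8.56 and 5.43 CPM after arsenite. Mock and arsenite tags numbered 10 and 10, 2 and 1, and 48 and 1 in the same order. The ratios of mock over arsenite were 7.25 (counting interval 2.71 to 19.4), 12.0 (0.626 to 709) and 6.91 (1.18 to 279). A difference was thus not detectable in JL0388, and JL1024 had a single arsenite tag. The edgeR log2 difference was -2.82 (adjusted p = 0.00990) and the limma difference -1.25 (adjusted p = 0.253). KMT2C, a histone methyltransferase, had intron medians of 47.7 and 8.27 CPM (edgeR log2 -2.27, adjusted p = 0.0497). CEP192, a centrosome scaffold, had no intron tag in 5 of 7 arsenite libraries, and 41 of its 45 mock tags came from JL1024 (edgeR log2 -3.17, adjusted p = 0.0230).

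The introns of BICC1 held 39 mock tags and 1 arsenite tag in JL1024, a ratio of mock over arsenite of 5.61 with a counting interval of 0.95 to 227, 5 and 0 tags in JL0361, and 0 and 2 in JL0388 (edgeR log2 -3.22, adjusted p = 0.0202; limma -1.29, adjusted p = 0.239). In the same gene the 3'UTR was called higher by edgeR (log2 2.27, adjusted p = 0.0194, and limma 1.42, adjusted p = 0.239). It had 25 mock and 18 arsenite tags in JL1024, from pooled library totals of 1278461 and 184049. In JL0361 it had 2 and 110 tags, from totals of 157610 and 1142132. AFP introns were called lower (edgeR log2 -2.56, adjusted p = 0.0350), whereas its coding sequence, with a peak at chr4:73436299-73436318 that held 77.0% of the tags, had a log2 of 0.80 (edgeR adjusted p = 0.312). SPIN1, RPS6KA3, TAS2R14 and ATP13A3 introns were also called lower by edgeR, with log2 differences of -3.22 to -2.48, against limma differences of -0.93, -0.64, -1.81 and -0.24. In JL1024, which held most mock tags of ATP13A3 and RPS6KA3, the ratios of mock over arsenite were 1.51 (interval 0.369 to 13.3) for ATP13A3 and 2.02 (interval 0.508 to 17.5) for RPS6KA3, so a difference was not detectable there. In JL0361 the ratios were 58.0 for ATP13A3 (8 mock and 1 arsenite tags, interval 7.77 to 2572) and 25.4 for RPS6KA3 (7 and 2 tags, interval 4.83 to 250). JL0388 held 0 mock and 1 arsenite tags of ATP13A3, and 1 and 2 of RPS6KA3 (ratio 3.01, interval 0.0510 to 57.7). The 2 non-coding RNAs called lower were LINC02109, with medians of 94.3 and 17.2 CPM (edgeR log2 -1.72, adjusted p = 0.0347), and ZFHX4-AS1, which had no tag in JL1024. MT-TF, the mitochondrial phenylalanine transfer RNA, was the remaining one, with tags in 6 of 6 mock and 3 of 7 arsenite libraries (edgeR log2 -3.09, adjusted p = 0.0364). The 3 introns that edgeR called higher were those of CYTH1, HSF5 and RBM15, with log2 differences of 3.61, 2.96 and 2.57.

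**Figure D4:**
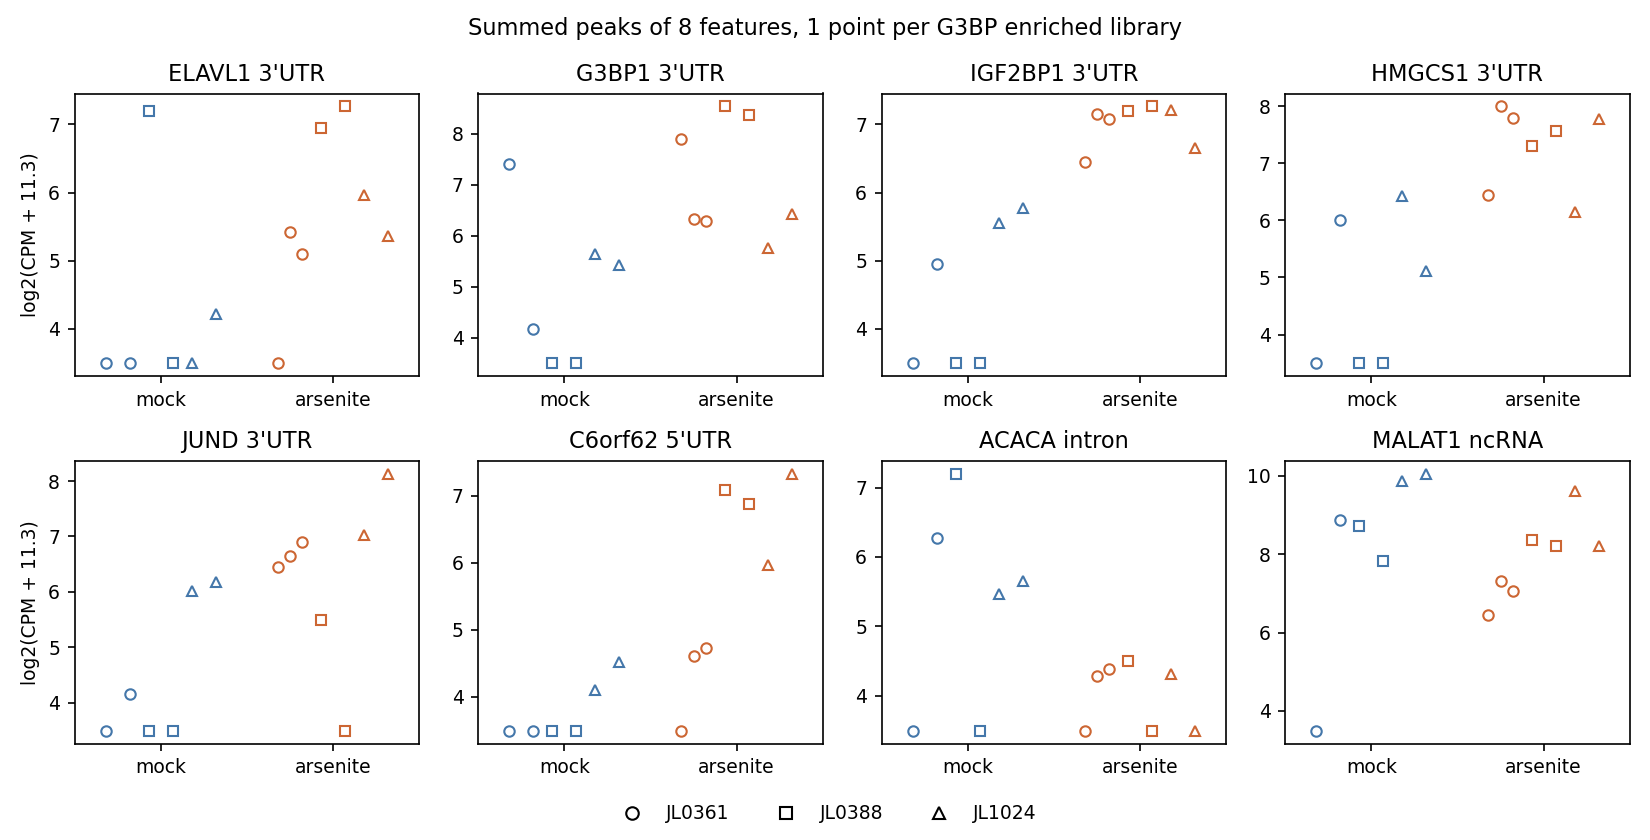
Summed peaks of 8 features on the log2(CPM + 11.3) scale, 1 point per G3BP enriched library, mock in blue and arsenite in orange, with the library set shown by the symbol; the lowest position on each axis that several points share is a count of 0. IGF2BP1 has no overlap between treatments, ELAVL1, G3BP1 and JUND overlap through 1 or more libraries, and MALAT1 is highest in mock libraries 5 and 6 of JL1024 and at 0 tags in mock library 1.

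The transcript of HuR itself was among the calls. The ELAVL1 3'UTR had 0 tags in 4 mock libraries and 136 and 7.41 CPM in the other 2, and ranged from 0 to 143 CPM with a median of 31.4 after arsenite. Mock library 3, with 2 tags in a shallow library, overlapped the arsenite range, and arsenite library 1 had 0. The edgeR log2 difference was 2.46 (adjusted p = 0.0350) and the limma difference 1.56 ± 0.66 (SE, adjusted p = 0.239). The G3BP1 3'UTR ranged from 0 to 158 CPM in mock (median 19.2) and from 42.7 to 361 CPM after arsenite (median 74.7). It did not pass either test, with an edgeR log2 of 1.62 (adjusted p = 0.0654) and a limma difference of 2.12 (adjusted p = 0.205).

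MALAT1, a long non-coding RNA retained in nuclear speckles, had the strongest non-coding signal. It ranged from 0 to 1045 CPM in mock libraries (median 431) and from 76.1 to 769 CPM after arsenite (median 284). The mock value of 0 came from mock library 1, where it allows up to 474 CPM. Its edgeR log2 was -0.97 (adjusted p = 0.0832), its limma difference -0.04, and its pooled CPM was lower after arsenite in each set. A single peak, chr11:65501023-65501042, held 71.1% of its tags and was at 311 and 749 CPM in mock against 84.9 and 386 CPM after arsenite in JL0361 and JL1024. In JL0388 that peak had 51.5 against 111 CPM, on 1 mock and 13 arsenite tags, so its order there was not resolved. NEAT1, the paraspeckle RNA, had medians of 20.3 and 8.54 CPM (edgeR adjusted p = 0.478).

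ACTB, encoding beta-actin, had the most tags of all features' leading peaks, at chr7:5527611-5527630 in its 3'UTR. The 3'UTR ranged from 214 to 853 CPM in mock (median 542) and from 376 to 1470 CPM after arsenite (median 641), with overlapping groups (edgeR log2 0.44, adjusted p = 0.472). Reads of ACTB and its near-identical copies may have been shared in the counting.

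In each of 16 lists of genes that were followed, edgeR called at most 3 features. Over all 1417 3'UTR features edgeR called 6.35% higher and none lower, 83.2% were above 0 and the median log2 was 0.91, and the 3'UTR counts of the lists are read against these values. Of 34 stress granule protein genes 27 were tested, as 30 features, and 2 were called higher, ELAVL1 and IGF2BP1. The median of their 21 3'UTR features was 0.91, equal to that of all 3'UTRs. DDX6, a helicase of P-bodies and stress granules, had a log2 of 0.99 (edgeR adjusted p = 0.342).

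The 16 tested 3'UTRs of genes described as HuR targets were all above 0, with a median of 1.55, and 1 of them, ELAVL1, was called, a share near the 6.35% of all 3'UTRs. CTNNB1, encoding beta-catenin, had the most tags of this list after ACTB: 0 to 858 CPM in mock (median 194) and 334 to 755 CPM after arsenite (median 392), with an edgeR log2 of 1.00 (adjusted p = 0.0902). CDC42, a small GTPase, had a log2 of 1.15 (edgeR adjusted p = 0.147). The list's median lay 0.28 to 0.66 above that of all 3'UTRs across 6 scalings and tests.

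Of the translation factors, 14 3'UTRs had a median of 1.46, and GSPT1, the release factor eRF3a, was called higher. EIF2S3, the gamma subunit of eIF2, ranged from 0 to 126 CPM in mock and from 71.3 to 194 CPM after arsenite (edgeR log2 1.22, adjusted p = 0.119). EIF5A had a log2 of 1.82 (edgeR adjusted p = 0.0726), and its reads can be shared with the intronless copy EIF5AL1. Of 80 cytosolic ribosomal protein genes only 3 had a testable feature and none was called. The 3'UTRs of RPL37 and RPL15, with 14 tags each, had edgeR log2 values of -0.68 and -0.22 and limma values of 0.19 and 0.18.

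Among 9 tested 3'UTRs of immediate early and AU-rich genes, with a median of 1.23, JUND was called higher. JUND, an AP-1 transcription factor, ranged from 0 to 61.4 CPM in mock (median 3.31) and from 0 to 269 CPM after arsenite (median 89.3; edgeR log2 2.14, adjusted p = 0.0142; limma 1.84, adjusted p = 0.239). In JL1024 its 120 and 269 CPM after arsenite lay above 53.9 and 61.4 CPM in mock, while arsenite library 5 had 0. ZFP36L1, an AU-rich element decay factor, had a log2 of 1.66 (edgeR adjusted p = 0.223).

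The stress response lists held no call. In the integrated stress response list, 3 3'UTRs were testable of 30 genes and their median was 2.51 in edgeR and 1.01 in limma, 0.29 to 1.68 above that of all 3'UTRs across 6 scalings and tests. CEBPB, a transcription factor of that response, had 1 mock and 6 arsenite tags in JL0361, where it was lower after arsenite at 5.25 against 6.34 CPM, and no mock tag in the other sets (edgeR adjusted p = 0.204), and PPP1R15B, which targets phosphatase to eIF2, had medians of 2.12 and 34.3 CPM (adjusted p = 0.136). Intron peaks of ATF3, of which chr1:212590257-212590276 held 94.3% of the tags, had medians of 43.8 and 72.5 CPM (edgeR log2 0.66, adjusted p = 0.463). Heat shock and chaperone 3'UTRs had a median of 1.06 over 7, with HSP90AA1 at -0.12 and HSPA9 at 1.07. The 4 3'UTRs of the NRF2 and metal response list had a median of 0.79, with TXNRD1 at 1.11 and the glutathione reductase gene GSR at 1.35 (edgeR adjusted p = 0.299 and 0.203).

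In the cholesterol and lipid synthesis list 8 genes were tested, in 11 features, of which 7 were 3'UTRs and 3 introns. There edgeR called the 3'UTRs of HMGCS1 and of ACLY, the ATP citrate lyase that supplies cytosolic acetyl-CoA, higher and the introns of ACACA lower. Over all 892 intron features 1.01% were called lower. SCD, the stearoyl-CoA desaturase, had medians of 246 and 292 CPM (edgeR log2 0.62, adjusted p = 0.334), with the opposite order in JL0361, 257 CPM after arsenite against 292 in mock. The actin and cytoskeleton list had a 3'UTR median of 1.21 over 10 features and 1 call, ACTN4, an alpha-actinin. MYH9, a non-muscle myosin heavy chain, had a log2 of 1.22 (edgeR adjusted p = 0.133).

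HNRNP and SRSF splicing factor genes gave 25 testable 3'UTRs with a median of 0.99 and no call. HNRNPH1 ranged from 67.8 to 466 CPM in mock (median 223) and from 304 to 792 CPM after arsenite (median 542; edgeR log2 1.02, adjusted p = 0.0900). HNRNPU had a log2 of 1.25 (adjusted p = 0.0536) and HNRNPL of 1.31 (adjusted p = 0.0726), both by edgeR. RNA silencing and decay factors had a median of 0.80 over 16 3'UTRs and no call, with TNRC6B at 0.72 and KHSRP at 1.08.

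Of the hepatocyte plasma protein genes 4 were testable, in 7 features, and the AFP introns were the only call. ALB, encoding albumin, had 2 mock and 26 arsenite tags in its 3'UTR in JL0361 (ratio 1.79, interval 0.449 to 15.6) and no mock tag in the other sets (edgeR adjusted p = 0.0830), and APOB, apolipoprotein B, had coding sequence medians of 4.49 and 29.8 CPM (adjusted p = 0.135). None of 7 nuclear long non-coding RNAs and snoRNA hosts, 4 cytoplasmic long non-coding RNAs or 4 features of the mitochondrial genome other than MT-TF was called, as the lists did not hold it. Over all 162 non-coding RNA features edgeR called 0.617% higher and 1.23% lower, and over all 2560 features 3.75% and 0.469%. No call among so few features is near those shares. GAS5, a snoRNA host, went opposite ways between sets: pooled CPM was lower after arsenite in JL0361 (6.13 against 12.7, ratio of mock over arsenite 2.07, interval 0.210 to 10.9) and in JL0388 (8.56 against 154, on 1 and 3 tags), and higher in JL1024 (130 against 37.5, ratio of arsenite over mock 3.47, interval 2.03 to 5.78). NORAD, a cytoplasmic long non-coding RNA, had 29.8, 240 and 16.3 CPM after arsenite against 19.0, 51.5 and 19.6 CPM in mock in JL0361, JL0388 and JL1024. The 4 listed mitochondrial features were all below 0 in edgeR, with a median of -1.18, and MT-RNR2, the large ribosomal RNA, had medians of 183 and 111 CPM (adjusted p = 0.323), with the opposite order in JL1024, 86.9 CPM after arsenite against 71.2 in mock.

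**Figure D5:**
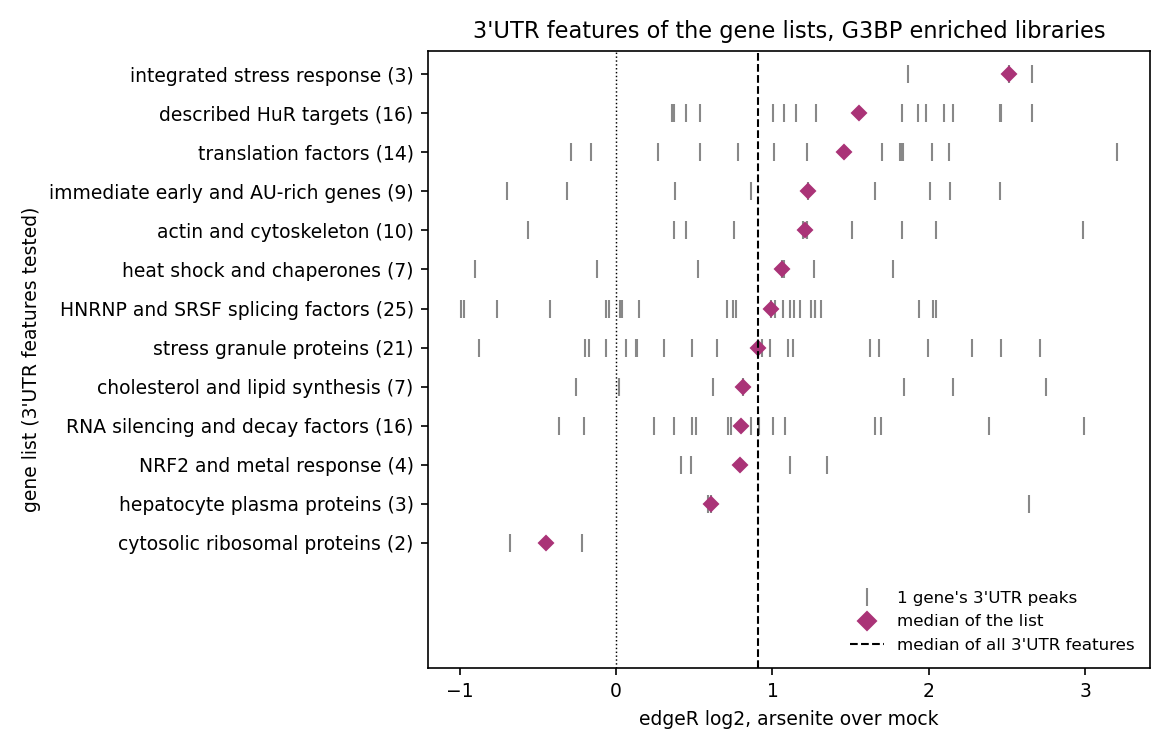
edgeR log2 difference, arsenite over mock, of the tested 3'UTR features in each gene list (grey ticks), with the list median (purple diamond), the median of all 3'UTR features (dashed line at 0.91) and 0 (dotted line). List medians run from -0.45 for 2 ribosomal protein genes to 2.51 for 3 integrated stress response genes, for which limma gives 0.18 and 1.01.

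The same treatments were compared before capture, in 9 G3BP input libraries, and after capture in the NES line, which carries APEX-NES in place of APEX-G3BP1, in 8 libraries. In the input libraries the 3'UTR percentage, summed over genes with both peak classes, was 34.4% and 29.9% in mock and 47.1%, 49.7% and 49.2% after arsenite in JL0361. It was 24.3% against 36.2% in JL0388 and 32.5% against 39.0% in JL1024. The input difference was 13.2 points (two-sided exact permutation p = 0.025, the smallest of 40 arrangements). In the NES enriched libraries it was 54.0% and 55.1% against 64.9% and 63.2% in JL0388, and 36.9% and 37.7% against 50.6% and 48.6% in JL1024, a difference of 10.9 points (two-sided exact permutation p = 0.0556, the smallest of 36 arrangements).

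The larger difference near G3BP1 was not shown to differ from either. Against input, the difference of differences was 10.7 points (exact permutation p = 0.480), and against the NES enriched libraries, over JL0388 and JL1024 alone, 15.8 points (exact permutation p = 0.0725). The second passed when set, line and treatment differences were removed before permuting (exact permutation p = 0.0231), without arsenite library 6 (21.4 points, p = 0.0201) and without mock library 5 (17.2 points, p = 0.0448). For the intron share the differences of differences were -9.43 points against input and -10.4 points against NES enriched (exact permutation p = 0.339 and 0.170). For the 3'UTR share they were 6.13 and 16.0 points (exact permutation p = 0.524 and 0.100, adjusted 0.334 for the second).

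At the level of features, the limma interaction with capture called 0 of 14128 (508 unadjusted) and the interaction with line 0 of 4994 (214 unadjusted). The edgeR interactions called 1 (0.00708%) and 0, with 1592 and 313 at an unadjusted p under 0.05. Without the libraries under 2000 tags, limma's interaction with line called 665 of 10707 features, 664 of them negative, but JL0388 then has no G3BP mock library and the G3BP line is compared with mock within JL1024 alone. The 1 call of edgeR's interaction with input was an intron feature of TRIM66 with 8 tags in 2 arsenite and none in mock enriched libraries, against 9 mock and 3 arsenite tags in input. Of 200 features with simulated 4-fold changes in the capture interaction, edgeR recovered 1 and made 1 false call, so a single call is no more than that simulation gave falsely, and limma recovered 0.

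Of the 96 features that edgeR called higher near G3BP1, 92 were above 0 in the input libraries with a median of 0.92, and 11 were called higher there, where edgeR called 182 of 10756 features higher (1.69%) and 62 lower (0.576%). All 1404 3'UTR features tested in both had a median of 0.94 in input, with 1292 above 0 and 150 called. IGF2BP1, JUND, HMGCS1 and GDI2 were among those called in input, with edgeR log2 values of 1.87, 2.38, 1.34 and 1.48 (adjusted p = 0.00221, 0.00128, 0.0150 and 0.00993). CORO1C, HELLS and ELAVL1 were not, with 0.74, 0.42 and 0.95 (edgeR adjusted p = 0.276, 0.634 and 0.267). Of the 12 lower features, AFP introns and MT-TF were called lower in input too, with log2 values of -2.20 and -1.31, while ACACA introns were at 0.00. In the NES enriched libraries 42 of the 96 could be tested, 23 were above 0 with a median of 0.29, and none was called, where edgeR called 0 of 1554 features in all (68 at an unadjusted p under 0.05). The calls near G3BP1 and in input or NES come from different libraries, and the difference between them was tested only by the interactions above.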

How the data were processed

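HuR CLIP tags were counted in 20 nt peaks by the authors, whose deposited table gives, per library, a coverage signal per peak divided by the library's total, with class and gene name. Per the submitters' processing notes, Bowtie2, SAMtools, bedtools and HOMER were used with build GRCh38.p14, and no versions are given there. Dividing each column by its smallest value above 0 gave whole tags for 100% of the deposited signal values (tolerance 0.05 tag). From these, 8257 repeated lines of 395471 were dropped, and the tags of 387214 peaks were summed per gene name and class. Tags without a gene name (26.0% of 270286 in the 13 libraries) entered the class shares only.

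Each library's value was expressed per 1000000 tags of its total (CPM). Features with tags in at least 6 of the 13 libraries were tested with limma 3.58.1 (trend) on log2(value + 11.3 CPM) with library set as covariate, in R 4.3.3, and a log2 difference on that scale understates changes of low features. edgeR 4.0.16 (quasi-likelihood, library totals as offsets) and DESeq2 1.42.0 were run on the recovered tags as alternatives. P-values were adjusted by Benjamini-Hochberg over all features of a fit. Class shares were tested by two-sided exact permutation of treatment within library set, in Python 3.11.15. Named features were up to 15 per direction called by limma and by edgeR, smallest p first, 5 set genes (ELAVL1, G3BP1, MALAT1, NEAT1, ACTB), and the 3 tested features with the highest mean in each of 16 gene lists. The comparison, lists and tests were chosen with earlier results of these data known. The design assumed normalised coverage, and the limma test was kept as the main one.

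Mock and arsenite libraries of a set that share the number at the end of their descriptions, which restarts in each set, had correlations of -0.04 to 0.13 and were not treated as pairs. On simulated data with 200 changed features of 2560, edgeR recovered 39 of 4-fold and 120 of 8-fold changes, with 4 and 10 false calls, and limma 3 and 25. Counting intervals and the limit of 3 tags that a count of 0 allows cover counting error only, since PCR copies are not independent molecules. A tag count holds RNA level, HuR occupancy and capture together, and fewer cells and less RNA per cell cannot be told apart.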

Additional observations from a re-analysis of the deposited data

Results flagged for a closer look

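Of 174 groups tested, each the 6 mock or the 7 arsenite libraries, 26 held a library far from the others by Dixon's criterion. Its nominal rate of 1 in 20 assumes normal values of equal precision. Many of the flagged values are a few tags in libraries of unlike depth, so the 26 cannot be read against that rate. The far mock values were 2.12 CPM for PM20D2, 3.18 for PRELID3B and 4.24 for ZNF543 in library 6, and 2.99 for both NAV2 and SEC63 in library 5, each with no tag elsewhere in mock. In mock library 3 they were 67.8 CPM for HELZ, 136 for ELAVL1 and 136 for PPP1R15B. In mock library 4 they were 214.5 CPM for ZFP36L1 and 214.5 for NORAD, which is 1 tag there. Mock library 2 stood apart with 6.61 CPM for CEBPB, 13.2 for ALB and 33.1 for MT-ATP6. Mock library 1 had 0 CPM for MALAT1 and 0 for CTNNB1, and 158 for OIP5-AS1.

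Among arsenite libraries, library 1 stood apart with 19.0% of tags in transposable elements, 0 CPM for CORO1C, 0 for TXNRD1, 0 for CDC42 and 76.1 for MT-TF. Library 6 had 32.7% of tags in introns and a same-gene 3'UTR percentage of 47.5%, and without it the intron difference was -15.4 points. Library 7 had 1.10% of tags in snoRNA peaks, library 3 had 5.72 CPM for CEP192 introns and library 4 had 33.8 CPM for RPL15.

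The arsenite effect on the share of peaks classed as other differed between the G3BP and NES enriched libraries by -1.86 points (exact permutation p = 0.00309, adjusted 0.0309). The edgeR interaction with input called TRIM66 introns, with a fitted log2 of 8.01 (adjusted p = 0.0487) that rests on 8 enriched arsenite tags and no mock tag.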

How the results depend on the processing

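Calls of single features depended on the test and the depth. limma called 0 features as set out, 2 of 96 with tags required in every G3BP input library (6 in edgeR; this filter, and that of 3 libraries in edgeR, were added after seeing the data), 13 with tags required in at least 10 libraries and 46 with library weights, against 108 by edgeR, and 0 to 9 with 1 library left out (9 without arsenite library 1). edgeR's 108 became 0 with TMM, with DESeq2 and with a replicate block, 68 with arsenite libraries 4 and 5 as 1 sample, 70 with mock libraries 3 and 4 merged too, 62 per gene, 47 for single peaks and 2 without the libraries under 2000 tags, which also removes both mock libraries of JL0388. With 1 library left out it called 31 (without mock library 6) to 149 (without arsenite library 6). The interaction with input gave 1 call in edgeR, and that with NES gave 665 without the libraries under 2000 tags, 664 of them negative; the cause was not tested.

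The intron difference kept its direction in each setting run. It was -12.9 points with arsenite libraries 4 and 5 as 1 sample, -12.5 with mock libraries 3 and 4 merged too, -12.2 without the shallow libraries, -14.8 without library set and -14.0 with the replicate block, with adjusted exact permutation p-values of 0.0556 to 0.312, of which the first 2 are the smallest those designs can give. Within JL0361, JL0388 and JL1024 alone it was -9.24, -20.0 and -12.6, and with 1 library left out -15.4 to -12.2. The 3'UTR difference ran from 15.6 to 20.7 points with 1 library left out and was 3.18 as a percentage of the library total. For the same-gene percentage, summed over genes with both peak classes, the difference was 22.5 points without the shallow libraries and 18.2, 32.2 and 21.1 in the single sets. Against NES enriched libraries, removing the main differences before permuting left the 3'UTR share at 16.0 points and the same-gene percentage at 15.8, and leaving out 1 library moved the latter from 12.2 to 21.4. The search for U-rich letters in all peaks was not run, since no genome was used here. The replicate block used the numbers at the end of the descriptions, which the libraries share by label only.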

Other observations

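A few single peaks outside the lists had many tags. The one with the most, chr18:62443251-62443270, has no gene name and held 1354 tags. It had 793 CPM after arsenite against 330 in mock in JL0361, 120 against 154 in JL0388 and 348 against 246 in JL1024. Its JL0388 values rest on 14 arsenite and 3 mock tags, so the order in that set was not resolved. The intron peak of KDM4C, a histone demethylase gene, at chr9:6835712-6835731 held 620 tags and, unlike the median intron, had more pooled CPM after arsenite in each set: 374 against 171 in JL0361, 128 against 103 in JL0388 and 152 against 94.6 in JL1024. For this peak too the JL0388 order was not resolved, with 15 arsenite and 2 mock tags. The 3'UTR peak of SPTBN1, a spectrin gene, at chr2:54669257-54669276 held 820 tags, with 375, 642 and 369 CPM after arsenite against 114, 463 and 174 CPM in mock. These peaks were picked for their tag counts and were not tested.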
